A study of Mus musculus with 8 samples.

Results

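The Reg (regenerating islet-derived) genes are a family of 6 mouse genes considered here by name, Reg1, Reg2, Reg3a, Reg3b, Reg3g and Reg4, of which 5 had entries among the 13399 genes with a value in RNA sequencing of intestinal organoids. They were chosen by family name, with earlier results of these data known, so the differences between groups below describe them and are not independent evidence that they differ. An entry was taken by the Ensembl identifier, and every Reg event lay at annotated exon boundaries of the gene in GRCm38. Start or end events of transcription were chosen by their mean over all 8 samples, and no other measured value entered the rule. The organoids were grown in Matrigel from crypts of mouse intestine in IntestiCult medium, with 4 WT samples from wild type littermates and 4 samples from MG53-TG mice, which overexpress MG53, a muscle E3 ligase encoded by Trim72, throughout the body. The labels give no treatment and no age. In 1 passage the study names the organoid genotypes MG53;Lgr5 and Lgr5 instead, and nothing in the labels says that the samples of a group came from separate animals, so that p-values measure the spread between these samples, which may be technical.

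Reg proteins are small secreted proteins built around a single C-type lectin domain. In the intestine, the Reg3 proteins are released at the mucosal surface, where Reg3g and Reg3b bind bacteria and help to keep them away from the epithelium. Reg1 was first described in the endocrine and acinar pancreas and is also made by intestinal epithelium, and Reg4 is known as a product of enteroendocrine and deep crypt secretory cells. Reg3 genes are textbook targets of interleukin-22 and STAT3 and of microbial signals. All but Reg4 lie close together on chromosome 6, as is typical of a family that arose by duplication.

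In these organoids the 5 measured Reg genes were all higher in MG53-TG than in WT. Reg1 rose from 2.88 ± 0.665 to 353.4 ± 169.8 FPKM (SD, n = 4 each) and Reg3a from 0.469 ± 0.104 to 80.1 ± 43.2 FPKM. Reg3g rose 8.40-fold, Reg3b 5.08-fold and Reg4 2.76-fold in mean FPKM. FPKM counts sequenced fragments relative to transcript length and library size, and the authors deposited it for each transcript event. Each of the 5 passed an adjusted p of 0.05 in limma on log2(FPKM + 1), where 15.5% of the 10415 genes tested were higher and 29.2% were lower in MG53-TG. In each of the 5, every MG53-TG sample lay above every WT sample, which 15.6% of the genes tested also showed. Since the genes were chosen with the results known, their count is given beside these shares as a description only. Reg3a, with a WT mean under 0.5 FPKM, passed the filter on the mean over all samples only through its MG53-TG values.

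The genes of chromosome 6 were, in order along GRCm38, Reg3b (chr6:78370657-78373466, plus strand), Reg3d (chr6:78375874-78378865, minus strand), Reg3a (chr6:78380709-78383827, plus strand), Reg2 (chr6:78395623-78408106, plus strand), Reg1 (chr6:78422711-78428667, plus strand) and Reg3g (chr6:78466269-78468872, minus strand). Reg4 was on chromosome 3 (chr3:98222156-98236748, plus strand). The sequences just upstream of the transcription starts are shown because the measured genes moved in the same direction. Each is from RefSeq (GRCm38.p6), reads 5′ to 3′ on the strand of the gene, and the window searched ends at the base before the most used start event, or before the RefSeq start for Reg2, which had no event. Capitals mark matches to TATAAA (the TATA box), TTCNNNGAA (the STAT form), GATAAG (the GATA form) and TTTATNG (a CDX form), on either strand. The windows searched were chr6:78425733-78425982 for Reg1, chr6:78404905-78405154 for Reg2, chr6:78380459-78380708 for Reg3a, chr6:78370635-78370860 for Reg3b, chr6:78468873-78469124 (minus strand) for Reg3g and chr3:98221906-98222155 for Reg4. Each held 250 bases but for 226 in Reg3b and 252 in Reg3g. Those of Reg1 and Reg3b overlap an annotated exon of another transcript of the gene (from chr6:78425930 in Reg1 and chr6:78370657-78370706 in Reg3b), and only the part outside it is printed, chr6:78425733-78425929 and chr6:78370707-78370860.
Reg1: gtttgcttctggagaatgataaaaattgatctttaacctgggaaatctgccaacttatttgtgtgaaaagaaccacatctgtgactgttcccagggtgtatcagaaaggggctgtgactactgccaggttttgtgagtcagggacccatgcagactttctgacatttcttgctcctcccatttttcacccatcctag
Reg2: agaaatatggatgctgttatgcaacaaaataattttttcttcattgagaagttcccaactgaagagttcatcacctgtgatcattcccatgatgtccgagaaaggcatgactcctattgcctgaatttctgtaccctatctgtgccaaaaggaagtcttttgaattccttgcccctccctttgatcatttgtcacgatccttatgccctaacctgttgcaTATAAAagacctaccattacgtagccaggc
Reg3a: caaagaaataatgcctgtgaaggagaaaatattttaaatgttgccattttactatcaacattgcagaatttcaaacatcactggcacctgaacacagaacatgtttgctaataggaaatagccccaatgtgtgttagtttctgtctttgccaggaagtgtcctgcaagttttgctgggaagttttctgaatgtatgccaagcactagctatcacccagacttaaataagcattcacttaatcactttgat
Reg3b: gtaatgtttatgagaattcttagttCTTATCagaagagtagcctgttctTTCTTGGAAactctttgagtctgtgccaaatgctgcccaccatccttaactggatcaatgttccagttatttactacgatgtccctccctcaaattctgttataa
Reg3g: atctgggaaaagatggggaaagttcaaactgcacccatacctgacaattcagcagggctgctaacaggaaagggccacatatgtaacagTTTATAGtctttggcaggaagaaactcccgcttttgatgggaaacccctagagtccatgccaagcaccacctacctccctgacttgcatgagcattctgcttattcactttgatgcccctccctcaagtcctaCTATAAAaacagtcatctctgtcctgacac
Reg4: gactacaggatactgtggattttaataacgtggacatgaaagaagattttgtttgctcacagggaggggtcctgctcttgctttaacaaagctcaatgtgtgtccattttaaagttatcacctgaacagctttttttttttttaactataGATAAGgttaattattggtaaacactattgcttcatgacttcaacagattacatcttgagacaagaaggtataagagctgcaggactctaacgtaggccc

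A TATAAA lay 30 bases before the start of Reg1, within the annotated exon that is not printed, 30 bases before that of Reg2 and 29 bases before that of Reg3g, where it overlapped a reverse match of TTTATNG. Reg3g held a further overlapping pair of the same letters 163 bases before its start. TATAAA was thus in 3 of 6 windows and in 12.4% of all RefSeq promoter windows upstream of a start. Of the 6 windows TTCNNNGAA was found in that of Reg3b, 105 bases before the start (7.02% of all windows of 250 bases), but downstream of the other first exon of Reg3b (chr6:78370657-78370706), which carried 47.9%, 52.5% and 22.1% of the Reg3b start events in WT samples 1, 3 and 4 and from 5.43% to 31.1% in MG53-TG. It was also in the window of Reg3d, 238 bases before the start. GATAAG was in Reg3b and Reg4 (6.55%). TTTATNG was in Reg3g only (9.81%). The E-box form CANNTG, not in capitals, was in 6 of 6 windows and in 66.2% of all. These matches describe letters and not bound sites.

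The members are related but distinct in sequence. Between the first GENCODE transcripts, Reg1 and Reg2 were 78.9% identical over aligned bases, with a longest shared run of 19 bases. Reg3b and Reg3g were 74.4% identical with a run of 35 bases, Reg3a and Reg3b 74.0% identical, and Reg3a and Reg3g 69.8% identical. Reg4 was between 58.0% and 63.1% identical to the other 5 members. How reads that fit more than 1 family member were counted was not given in the sources used here.

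Trim72 had values of 16.4, 27.4, 31.9 and 36.5 FPKM across MG53-TG samples 1 to 4 and no entry in the 4 WT samples. The FPKM summed over all start events was between 269837 and 273797 in WT and from 269094 to 284330 in MG53-TG. The files hold no counts and their FPKM were estimates, so the depth behind each value is unknown. Since these are bulk samples, fewer or more cells of a type and a change of RNA per cell cannot be told apart.

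Reg1, a secreted lectin of pancreas and gut, had the highest level of the family in the MG53-TG samples. It was at 3.58, 2.62, 3.24 and 2.08 FPKM in WT samples 1 to 4. In MG53-TG samples 1 to 4 it was at 160.8, 273.3, 543.9 and 435.3 FPKM. The groups were far apart, and MG53-TG samples 3 and 4 were the highest. The ratio of means was 122.7, and the log2 fold change on the log2(FPKM + 1) scale was 6.38 (SE 0.345, limma adjusted p = 4.2e-06). By that fold change Reg1 ranked 2 among the 10415 genes tested. By mean FPKM it ranked 8069 in WT and 114 in MG53-TG.

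The start and the end of Reg1 gave the same FPKM in 6 of the 8 samples. All Reg1 start events used a first exon beginning at chr6:78425983, and GENCODE also holds upstream first exons from chr6:78422711. In MG53-TG sample 1 the listed start carried 144.5 of 160.8 FPKM at the end, and in sample 2 it carried 239.2 of 273.3 FPKM. So 10.1% and 12.5% of the end signal of these samples was not in a listed start.

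Reg2, the closest relative of Reg1 by sequence, had no entry in any sample, and no other identifier was placed inside it. No level or limit can be given for it, because the files list only estimated events.

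Reg3a, a member of the Reg3 group of secreted lectins, was near the bottom of the table in WT. Its level was 0.571, 0.359, 0.402 and 0.545 FPKM in WT samples 1 to 4. It was at 42.1, 43.1, 117.9 and 117.1 FPKM across MG53-TG samples 1 to 4. The MG53-TG samples fell into a lower and a higher pair, both well above WT. The ratio of means was 170.6 and the log2 fold change 5.62 (SE 0.356, limma adjusted p = 9.6e-06), which ranked 3 among the genes tested. Reg3a was among the genes tested only through its MG53-TG values, as its WT mean lay under the filter of 0.5 FPKM. Its adjusted p and rank are therefore a description only. The log2 value is below the log2 of the ratio because 1 FPKM was added to levels that were under 1 FPKM in WT.

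Reg3a was listed with a second start event in MG53-TG only. The annotated first exon (chr6:78380709-78380781, 73 bases) is followed by an intron of 301 bases and by exon 2 (chr6:78381083-78381163). The second event began at the same base and ran through that intron to the end of exon 2 (chr6:78380709-78381163). It was listed at 18.4, 19.7, 43.8 and 40.9 FPKM across MG53-TG samples 1 to 4. This was 43.7%, 45.7%, 37.1% and 35.0% of the Reg3a start events in those samples, with a mean of 40.4% ± 5.17. In WT it was not listed in any sample, while the annotated start was listed in 3 of 4 samples at 0.359 to 0.571 FPKM. With so little Reg3a in WT, the share was not compared between groups.

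Reg3b and Reg3g, the bactericidal lectins best known from mouse small intestine, were at different levels in these organoids. Reg3g was at 4.91, 6.67, 8.05 and 7.95 FPKM in WT samples 1 to 4 and at 30.2, 33.4, 77.0 and 90.9 FPKM across MG53-TG samples 1 to 4. Again MG53-TG samples 3 and 4 were the highest, and no sample overlapped the other group. The log2 fold change was 2.76 (SE 0.358, limma adjusted p = 0.00047), the rank 82 among the genes tested. Reg3g moved from rank 5775 of the mean FPKM in WT to rank 787 in MG53-TG.

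Reg3b was the lowest of the measured members in MG53-TG. Its values were 0.324, 0.878, 0.272 and 0.683 FPKM in WT samples 1 to 4 and 1.30, 1.53, 3.80 and 4.33 FPKM across MG53-TG samples 1 to 4. The lowest MG53-TG sample was above the highest WT sample by less than 1 FPKM. The log2 fold change was 1.20 (SE 0.297, limma adjusted p = 0.011) and the rank 517. It was the smallest fold change of the 5 on this scale, and it rose to 2.09 when 0.1 FPKM was added in place of 1. Its start events were 4, and the exon beginning at chr6:78370861 and ending at 78370910 carried between 50.0% and 74.9% of them in MG53-TG. In WT that event carried 91.6% in sample 2 and 61.4% in sample 4, against 3.01% and 1.70% in samples 1 and 3, at total levels under 1 FPKM.

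Reg3d, the remaining Reg3 gene of the cluster and not counted among the 6, was listed only in MG53-TG samples 3 and 4, at 1.02 and 0.451 FPKM. It lay under the filter of a mean of 0.5 FPKM. In the fit of all genes without that filter its log2 fold change was 0.39 (limma adjusted p = 0.20).

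Reg4, a lectin associated with enteroendocrine and crypt secretory cells, was the best expressed member in WT. It was at 38.5, 39.9, 42.9 and 50.0 FPKM in WT samples 1 to 4. It was at 116.4, 144.7, 107.3 and 104.9 FPKM across MG53-TG samples 1 to 4. The groups were separate, and here sample 2 was the highest of MG53-TG and samples 3 and 4 the lowest. The log2 fold change was 1.44 (SE 0.128, limma adjusted p = 5.5e-05), the rank 378.

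**Figure D1:**
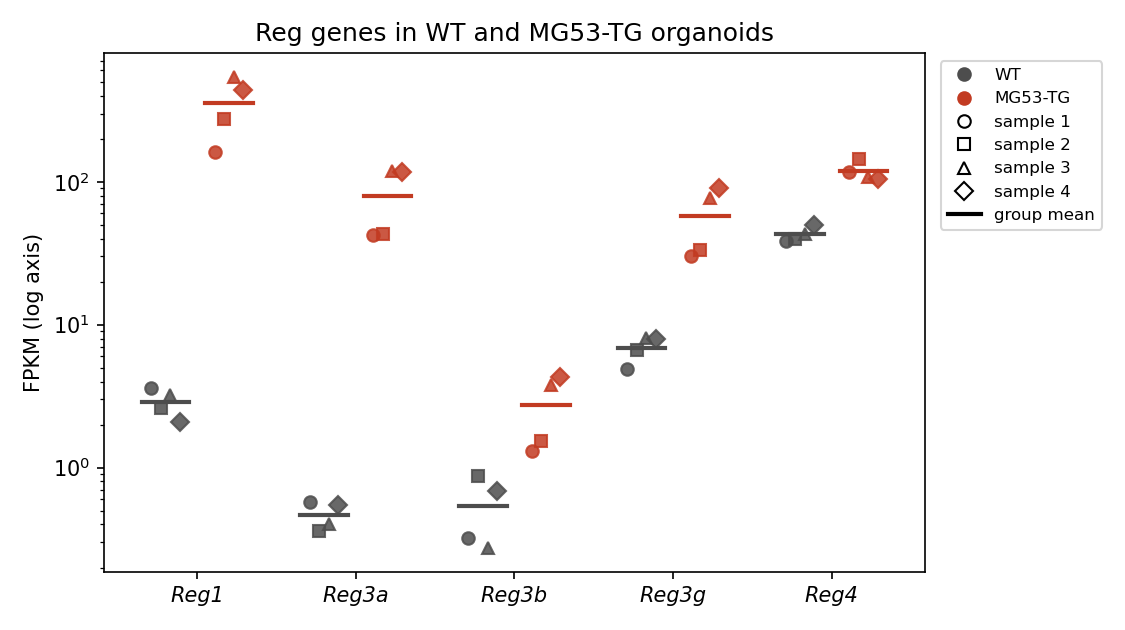
FPKM of the 5 measured Reg genes in each WT (grey) and MG53-TG (red) sample on a log axis, with the shape giving the sample number and the line the group mean (n = 4). The MG53-TG points lie above the WT points for each gene, and samples 3 and 4 (triangle and diamond) are the upper pair for Reg1, Reg3a, Reg3b and Reg3g but not for Reg4.

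The order of the genes was not the same in both groups. In WT the levels ran from Reg4 (42.8 ± 5.13 FPKM) to Reg3g (6.90 ± 1.46) and Reg1 (2.88 ± 0.665), each separate from the next, and then to Reg3b (0.540 ± 0.290) and Reg3a (0.469 ± 0.104), whose ranges overlapped. In MG53-TG Reg1 (353.4 ± 169.8) was above Reg4 (118.4 ± 18.2) without overlap. Reg4 and Reg3a (80.1 ± 43.2) overlapped, with Reg4 the higher in 2 of 4 samples. Reg3a was above Reg3g (57.9 ± 30.7) in 4 of 4 samples although their ranges overlapped, and Reg3b (2.74 ± 1.55) was below all others. The summed level of the 5 genes was 53.6 ± 5.86 FPKM in WT and 612.4 ± 229.5 FPKM in MG53-TG.

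As shares of that sum, Reg4 made up 79.8% ± 1.49 in WT and 22.2% ± 10.5 in MG53-TG. Reg1 made up 5.49% ± 1.70 in WT and 55.7% ± 7.55 in MG53-TG, and Reg3a 0.882% ± 0.222 and 12.5% ± 2.94. The share of Reg3g was 12.8% ± 1.83 in WT and 9.12% ± 2.21 in MG53-TG, with overlapping ranges. Within each sample, log2(FPKM + 1) of Reg1 minus that of Reg4 was between -4.05 and -3.11 in WT and between 0.46 and 2.33 in MG53-TG. The difference of Reg3a from Reg4 moved from between -5.05 and -4.65 to between -1.72 and 0.16, and that of Reg3g from between -2.74 and -2.28 to between -2.08 and -0.20. For Reg3b the difference from Reg4 was between -5.11 and -4.45 in WT and between -5.85 and -4.31 in MG53-TG, so the ranges overlapped.

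**Figure D2:**
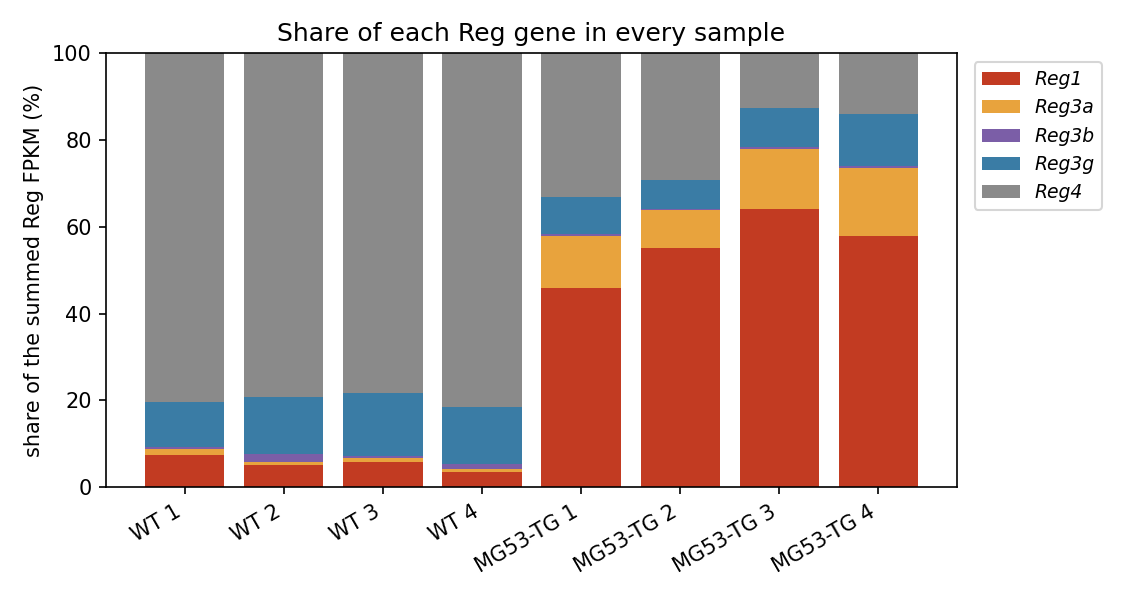
Share of each measured Reg gene in the summed Reg FPKM (percent, stacked to the whole) for each of the 8 samples. Reg4 takes between 78.2% and 81.6% of the WT sum and from 12.6% to 33.2% of the MG53-TG sum, where Reg1 takes between 45.8% and 64.0%.

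The 4 genes of chromosome 6 varied together among the MG53-TG samples. Their highest sample was 3.38 times the lowest for Reg1, 2.80 times for Reg3a, 3.32 times for Reg3b and 3.01 times for Reg3g, against 1.38 times for Reg4. In log2(FPKM + 1) the SD over the MG53-TG samples was 0.776, 0.833, 0.622, 0.798 and 0.210 for Reg1, Reg3a, Reg3b, Reg3g and Reg4. After each group mean was subtracted, Pearson r over the 8 samples was between 0.698 (Reg1 and Reg3b) and 0.909 (Reg3a and Reg3g) for the pairs of these genes. With Reg4 it was between -0.595 and -0.399. These values are descriptions over samples that share libraries, and among WT samples alone the pairs of chromosome 6 ran from -0.774 to 0.199.

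**Figure D3:**
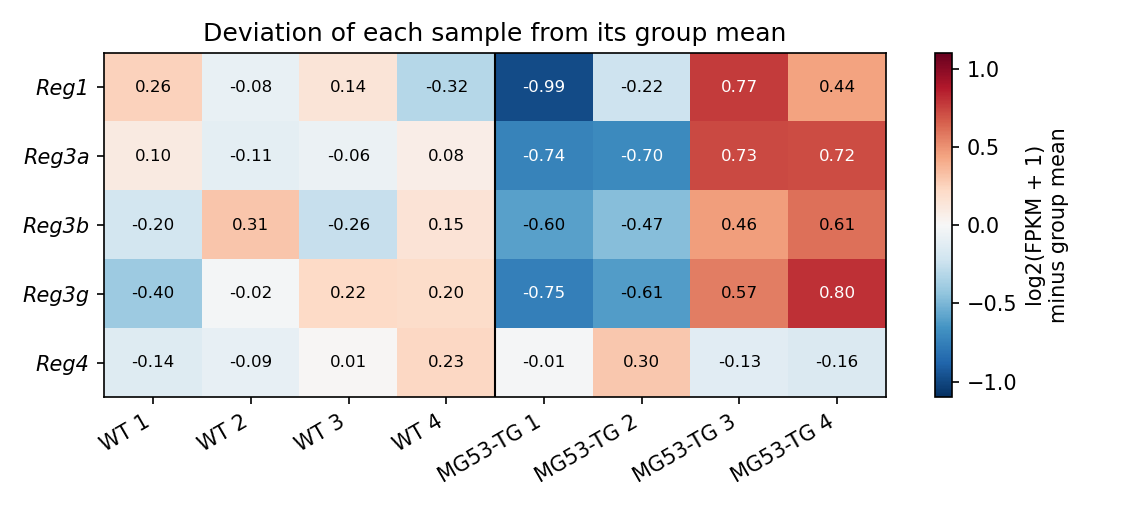
Deviation of log2(FPKM + 1) of each Reg gene from its group mean, with samples in columns and genes in rows (colour and number in log2 units). Reg1, Reg3a, Reg3b and Reg3g are below their mean in MG53-TG samples 1 and 2 and above it in samples 3 and 4, whereas Reg4 is highest in sample 2.

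Marker genes of other cell types also differed between the same MG53-TG samples. The summed FPKM of 6 stem cell markers was 276.3 and 291.9 in MG53-TG samples 1 and 2 and 89.1 and 56.1 in samples 3 and 4, against 499.2 to 672.5 in WT. The sum of goblet cell markers was 183.6, 257.0, 424.6 and 505.7 in MG53-TG samples 1 to 4, against 686.1 to 779.5 in WT. The sum of Paneth cell markers was 504.7, 559.6, 401.8 and 375.8, against 1244 to 1662 in WT. Those of enterocytes were between 11233 and 12427 in MG53-TG and between 914.9 and 1067 in WT. The part of these cell types in the Reg levels was not tested.

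By list, 10 of 10 enterocyte markers rose (median log2 fold change 3.35, against -0.17 for all genes tested). Over all genes tested, 15.5% rose and 29.2% fell. Fabp1, which carries fatty acids, was at 4.51 and Apoa4, a chylomicron apolipoprotein, at 4.33. Of 8 enteroendocrine markers tested 5 rose and 0 fell (median 0.59), among them the granins Chgb (1.39) and Chga (1.24), while the hormones Cck (-0.01) and Gcg (-0.49) did not pass. Of 8 Paneth cell markers 7 fell and 1 rose (median -2.39): the defensins Defa24 and Defa17 fell by 3.71 and 3.58, and the lipase Pnliprp2 rose by 3.27. Of 7 goblet cell markers 5 fell (median -0.96), led by Agr2, a secretory pathway disulfide isomerase (-2.66), and the mucin Muc2 (-1.55). Of 6 stem cell markers 5 fell (median -1.79), with Olfm4 at -4.01 and Lgr5 at -1.70, and 4 of 4 regenerative markers tested fell, led by Anxa1 at -3.35.

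Pancreatic acinar markers were examined because Reg1 and Reg2 are abundant in that gland. Of 9 acinar markers, 7, among them Cpa1, Pnlip and Amy2a5, had no entry in any sample. The other two rose, the chymotrypsinogen Ctrb1 from 4.04 ± 1.25 to 26.3 ± 21.5 FPKM (log2 fold change 2.09, limma adjusted p = 0.013) and the elastase Cela1 from 6.01 ± 0.192 to 12.1 ± 1.31 FPKM (0.90, limma adjusted p = 0.00022). The summed level of both was highest in MG53-TG samples 1 and 2, at 44.6 and 68.0 FPKM, and was 20.9 and 20.2 FPKM in samples 3 and 4. Of 5 immune cell markers none passed the filter, and their sum was at most 0.0913 FPKM. The sum of 5 mesenchyme markers was at most 5.10 FPKM. Of 3 tested, 2 rose and 0 fell, the collagens Col3a1 (log2 fold change 1.16, limma adjusted p = 0.00068) and Col1a2 (1.12, limma adjusted p = 0.0038), which had no entry in WT, where the missing entries were set to 0, and means of 1.26 and 1.24 FPKM over 3 MG53-TG samples. Sample 1 of MG53-TG had no entry for either gene, was treated as missing and was left out of these fits. With that entry counted as 0, as in WT, both genes lay under the filter of a mean of 0.5 FPKM and neither call was made. The part of mesenchymal cells in the Reg levels was not tested. Tuft cell markers summed to under 1 FPKM in every sample.

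Among the 12 other secreted antimicrobial proteins and lectins tested, 2 rose and 9 fell (median log2 fold change -1.20). Over all genes tested, 15.5% rose and 29.2% fell. The epithelial galectin Lgals4 rose from 135.7 ± 34.3 to 360.9 ± 74.8 FPKM (log2 fold change 1.42, limma adjusted p = 0.00074). The galectin Lgals3 fell by 1.72 on the log2 scale (adjusted p = 3.6e-05 in limma). Duox2, which makes hydrogen peroxide at the mucosa, and its maturation factor Duoxa2 fell by 1.48 and 1.57, from WT means of 2.61 and 2.47 FPKM. Zg16, a goblet cell lectin, was at 9.18 ± 2.67 and 33.6 ± 28.0 FPKM (adjusted p = 0.12 in limma). Ang4, Retnlb, Lcn2, Slpi, Saa1, Mptx2 and Camp had no entry.

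Genes upstream of Reg expression in textbook accounts were called in both directions. Of 9 genes of interleukin-22, interleukin-6 and STAT3 signalling tested, 2 rose and 1 fell (median 0.15), where 15.5% of all genes tested rose and 29.2% fell. Il10rb, a chain of the interleukin-22 receptor, rose by 0.62 (limma adjusted p = 0.0018) and Il11ra1, the interleukin-11 receptor, by 0.96 (limma adjusted p = 0.00045), and the kinase Jak1 fell by 0.38 (limma adjusted p = 0.043). Stat3 itself was at 8.73 ± 0.858 and 11.7 ± 4.96 FPKM (limma adjusted p = 0.50), and Jak2 at 7.36 ± 2.06 and 9.43 ± 1.83 FPKM. Of 12 innate sensing and cytokine receptor genes, 2 rose and 1 fell (median 0.13). Il18, an epithelial cytokine, rose by 1.83 and Il17ra, the interleukin-17 receptor, by 0.87, and Ripk2, the NOD receptor kinase, fell by 0.46. The Ripk2 fit used 3 MG53-TG samples, because sample 4 had no entry and was treated as missing. RNA levels of these genes do not measure the activity of their proteins.

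Of 15 transcription factors of crypt and secretory cells, 3 rose and 7 fell (median -0.44). Over all genes tested, 15.5% rose and 29.2% fell. Rxra, the partner of the vitamin A and PPAR receptors, rose by 0.89. Sox9, Klf4 and Spdef, factors of crypt base, goblet and secretory cells, fell by 1.29, 1.02 and 0.89. Of 5 genes of exostosins, among them the Reg receptor candidate Extl3, and of the EGF receptor, 0 rose and 3 fell (median -0.59). Extl3 was at 6.07 ± 0.269 and 3.77 ± 0.894 FPKM (log2 fold change -0.59, limma adjusted p = 0.012), Ext1 fell by 0.61 and Egfr by 1.07.

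**Figure D4:**
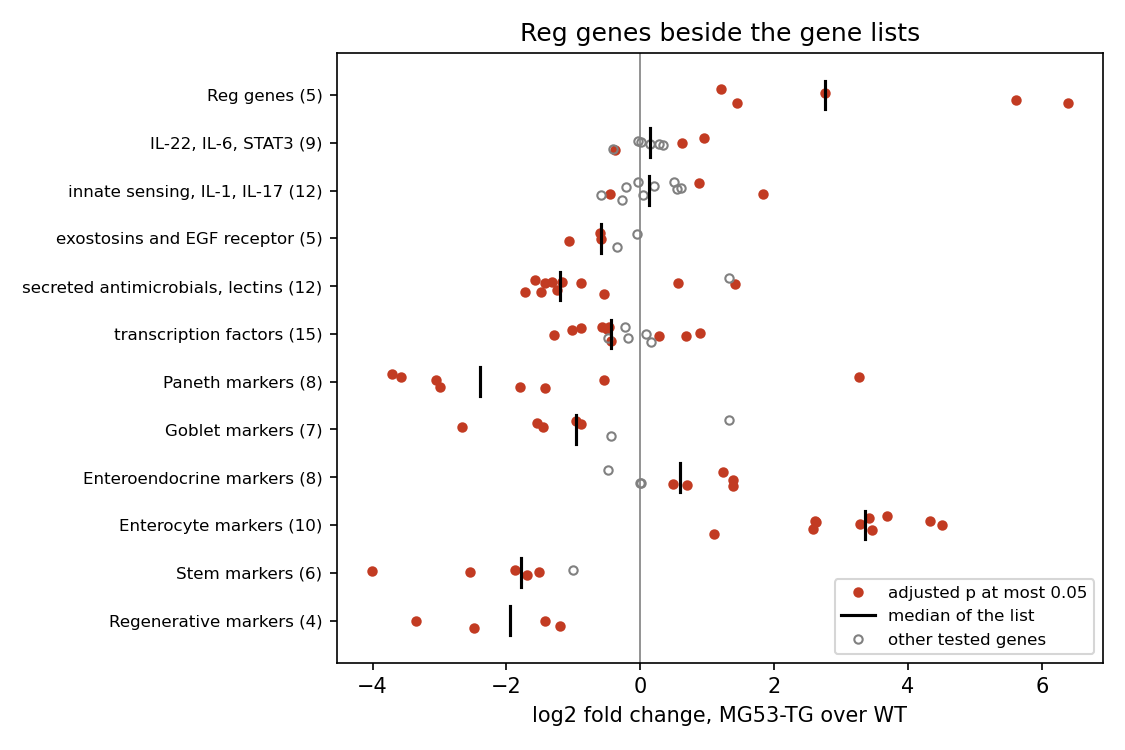
Log2 fold change of MG53-TG over WT for each tested Reg gene and for each tested gene of the lists with at least 4 tested genes, whose number is in parentheses. Filled points passed an adjusted p of 0.05 in limma, open points did not, and the bar is the median of the list. The Reg genes lie between 1.20 and 6.38, the enterocyte markers have a median of 3.35 and the Paneth markers one of -2.39.

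Along the chromosomes, no other protein-coding gene body lay within 300 kb of a Reg gene on chromosome 6. Near Reg4, Zfp697 rose by 0.87 and Sec22b, a SNARE of the secretory pathway, by 0.42, and Phgdh, the first enzyme of serine synthesis, did not pass (-0.75, limma adjusted p = 0.096). Notch2, Adam30, Gm4450 and Hsd3b4 had no entry.

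Likeness to Reg1, the member of the highest mean, was sought among 8724 genes. Each had a mean of at least 2 FPKM and a value in all 8 samples. The genes whose deviations from the group means were most like those of Reg1 were Tnks (Pearson r = 0.988 over 8 samples), Gpam (0.974), Gsta4 (0.973), Kdm5d (0.972) and Rps23 (0.960). Their fold changes between groups did not share a direction: Gsta4 rose by 1.67, Tnks, Gpam and Rps23 fell by 0.84, 0.98 and 0.38, and Kdm5d was at 0.03 (limma adjusted p = 0.93). In this order Reg3a came at place 187, Reg3g at 602 and Reg4 at 5643, and Reg3b lay under the level asked for. With so many genes and 8 samples, values of r this high are a description only.

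The direction and the call of each measured Reg gene stayed the same under all 20 alternative settings, of which 8 left out 1 sample. Reg3b came closest to the threshold, with an adjusted p of 0.034 in limma without WT replicate 1. The fold changes of Reg1 and Reg3a were between 6.13 and 6.71 and between 5.37 and 5.86 when samples were left out. Of all genes called, 34.6% were higher in MG53-TG (1613 higher and 3044 lower). With median-of-ratios scaling 50.0% were higher (2125 and 2129), the median of all genes moved from -0.17 to -0.01, and Reg4, the member with the narrowest error, was at 1.63.

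**Figure D5:**
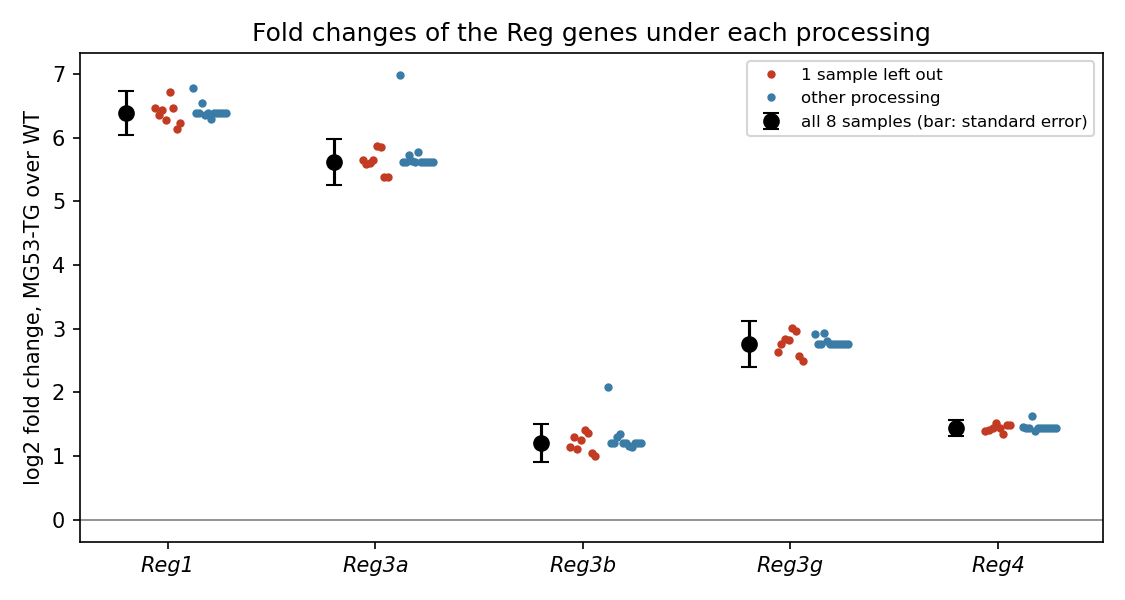
Log2 fold change (MG53-TG over WT) of each Reg gene with all 8 samples (black, bar: standard error), with 1 sample left out (red) and under other processing (blue). The values stay above 0 for all 5 genes, and the widest shifts are those with 0.1 FPKM added, at 6.98 for Reg3a and 2.09 for Reg3b.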

How the data were processed

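RNA sequencing tables of 4 WT and 4 MG53-TG organoid samples were used. The submitters' processing notes name Cutadapt 1.9.1, HISAT2 2.0.1, HTSeq 0.6.1, DESeq2 and the mouse build mm10, and the tool that made the event tables was not given in the sources used here. The authors deposited FPKM values per transcript event. The FPKM of a gene was the sum over its start events, or its end events where their mean over all samples was higher, for events that overlapped the gene named in the file in GENCODE M21. Where a sample had no entry for a gene, the value was set to missing if the rest of the group reached a median of 0.5 FPKM, and otherwise to 0. Groups were compared on log2(FPKM + 1) with limma 3.58.1 (R 4.3.3, trend), over the 10415 genes whose mean reached 0.5 FPKM and with Benjamini-Hochberg adjustment. The fit was tested on simulated data. Python 3.11.15 was used for the rest. The design assumed values per gene, and the deposited files hold events.

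The members, the 15 gene lists, the tests and the alternatives were chosen with earlier results of these data known. The genes named were the family, up to 4 genes past the threshold with the largest change and 2 of the highest level not past it from each list, the protein-coding neighbours within 300 kb and the 5 genes most like Reg1. The values of 1 gene named by this rule are not reported here. The alternatives were a pseudocount of 0.1, no filter, a minimum mean of 2 FPKM, 2 other scalings, the replicate number as a block, other gene values and leaving out each sample.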

Additional observations from a re-analysis of the deposited data

How the results depend on the processing

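Every measured Reg gene kept its direction and its side of the threshold under the 20 settings tried (Reg3b, whose mean was under 2 FPKM, was taken from the unfiltered fit under that filter), and the count of genes called stayed within 1.5 times of 4657, from 3516 with end events only to 4924 without MG53-TG replicate 2. When single samples were left out, the log2 fold change was 6.13 to 6.71 for Reg1, 5.37 to 5.86 for Reg3a, 1.00 to 1.40 for Reg3b, 2.49 to 3.01 for Reg3g and 1.34 to 1.52 for Reg4, and 3699 to 4924 genes were called. With the replicate number as a block, 4243 genes were called and the 5 Reg genes were too, with adjusted p from 0.00028 (Reg1) to 0.020 (Reg3b) in limma. The deviations of WT and MG53-TG samples of 1 number correlated at -0.053 to 0.097 over genes. Such values cannot show whether samples of 1 number shared a litter or a batch, so no conclusion on pairing is drawn.

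The values are estimates without counts, so the precision that depth gives is unknown. A level under 1 FPKM, as in WT for Reg3a and Reg3b, is uncertain as a fold, which the added 1 FPKM makes smaller. With 4 samples a group the number of samples limits the precision.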
